A study of Macaca mulatta with 18 samples.

Results

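Rab GTPases are small proteins that direct membrane traffic, and 40 of their genes were followed here in fetal macaque brain, out of 22345 genes in the RNA table. Members were all genes whose macaque symbol is RAB followed by a number and at most 1 letter, with RAB3A, RAB3B and RAB3C left out. Of the 40, 33 had a mean of 0 or more on the log2 scale over the 6 libraries and were tested, beside 13460 of all genes. The other 7 lay below that level. RAB5A, RAB8A and RAB35 are among the Rab genes not analysed here. RNA came from brain of wild type rhesus macaque fetuses at embryonic day 84. The tissues are named CP and GZ, abbreviations that the labels do not spell out, and each has 3 libraries. No label ties a library to an animal of its own or to a pool. Each p-value therefore reflects variation among the 3 libraries of a tissue, part of which may be technical.

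A Rab protein switches between a form bound to GTP, which sits on a membrane and recruits effectors such as motors and tethers, and a form bound to GDP. Exchange factors load GTP, GTPase-activating proteins end the active state, and GDI proteins carry the inactive, lipid-tailed form back through the cytosol. Each Rab marks particular membranes, so the family is usually read by site: endoplasmic reticulum and Golgi, secretory vesicles, early, recycling and late endosomes, and cilia. Neurons depend on it to supply growing axons and dendrites with membrane, and neural progenitors use it for apical membrane and cilium upkeep.

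Marker genes separated the tissues. All 10 cell cycle genes measured were higher in GZ by limma, with summed FPKM of 84.5 to 139 in CP and 239 to 441 in GZ. All 10 genes of maturing neurons were higher in CP (1678 to 1736 against 808 to 944). All 7 endothelium and pericyte genes were also higher in CP (120 to 172 against 28.6 to 60.9). None of 3 microglia genes was called (51.6 to 75.8 against 39.7 to 63.9), and none of 6 meningeal and fibroblast genes (120 to 131 against 127 to 162). Of 5 interneuron genes 4 were higher in GZ and 1 in CP, of 4 oligodendrocyte genes tested 2 were higher in GZ and 1 in CP, and of 3 erythroid genes 2 were higher in CP. The part of these cell mixtures in the Rab differences was not tested, and in bulk RNA fewer cells of a type and less RNA per cell cannot be told apart. Libraries numbered 1 differed from each other over 8 Y-linked genes (median log2 value 1.40 in CP and -0.17 in GZ), whereas number 2 had 3.34 and 3.63 and number 3 had -1.78 in both tissues. The number 1 libraries may therefore be mixed or mislabelled, which was not tested, and every CP against GZ value that includes them carries that doubt. Results with both number 1 libraries left out are given where they change.

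Rab genes spanned a wide range of levels. Mean log2 levels of the 33 tested genes ran from 0.67 (RAB27A) to 7.76 (RAB2A), with a median of 4.61 against 3.89 over all genes tested. A mean of 6 or more was reached by 11 of the 33 (33.3%) and by 10.2% of all genes tested. FPKM is scaled by gene length, so levels can be set side by side between genes as an approximation. The treatment of reads shared by similar genes is not stated. RAB2A, RAB11B, RAB1A, RAB6A, RAB10 and RAB7A had the highest means and together made up 51.6% ± 0.15 of the summed Rab FPKM in CP and 51.9% ± 2.3 in GZ (SD, n = 3). Their proteins act in the early secretory pathway, in recycling, in polarised delivery and at the lysosome.

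**Figure D1:**
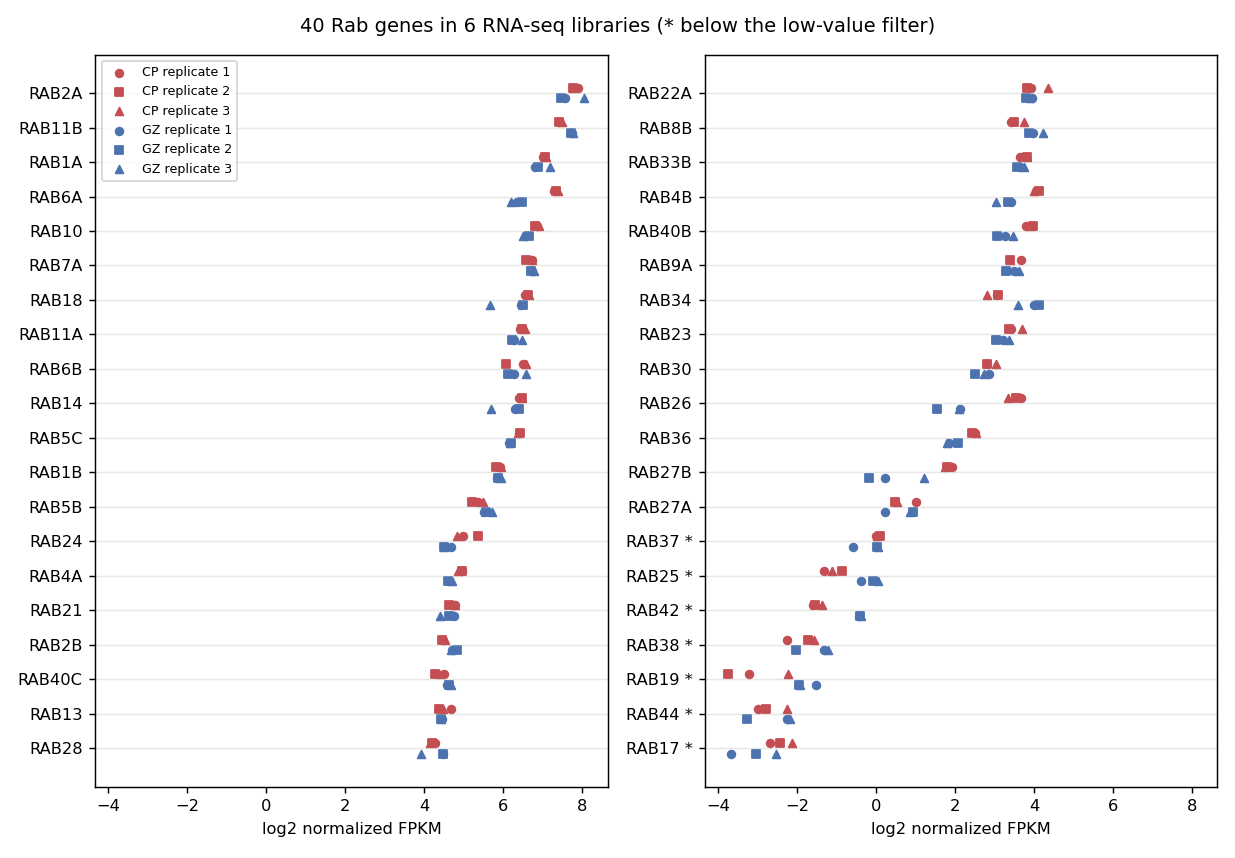
Log2 normalized FPKM of the 40 Rab genes in each library, ordered by mean level from top left to bottom right; red marks are CP, blue marks GZ, and the shape gives the replicate. Differences are small for most genes, while RAB6A, RAB26, RAB27B, RAB4B, RAB40B and RAB36 stand to the right in CP and RAB34 in GZ. RAB25, RAB42 and RAB19, below the filter and not tested, also stand to the right in GZ.

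Of the 33 tested Rab genes, 10 were higher in CP, 4 were higher in GZ and 19 were not called (limma, adjusted p under 0.05). Calls in either direction made up 42.4% of the Rab genes, near the 45.4% of all genes. The share of all genes was 20.9% for calls higher in CP and 24.5% for calls higher in GZ. The 3 values of each tissue did not overlap for 18 Rab genes (54.5%), against 56.4% of all genes. Called differences of at least 0.58, or about 1.5-fold, were found for 6 Rab genes, 5 higher in CP and 1 in GZ, a kind of call that 26.7% of all genes met. The median difference, CP minus GZ, was 0.14 over the Rab genes and -0.05 over all genes, and the median size of the difference was 0.25 against 0.35. The Rab counts fell to 6 higher in CP and 2 in GZ without GZ replicate 1, and GZ calls to 2 without CP replicate 2. Calls among all genes also fell without GZ replicate 1, from 2816 to 2254 in CP and from 3297 to 2237 in GZ. All-gene calls in GZ fell to 2713 without CP replicate 2. Without both libraries numbered 1 the Rab counts were 4 and 1, where calls among all genes fell to 1721 and 1644.

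**Figure D2:**
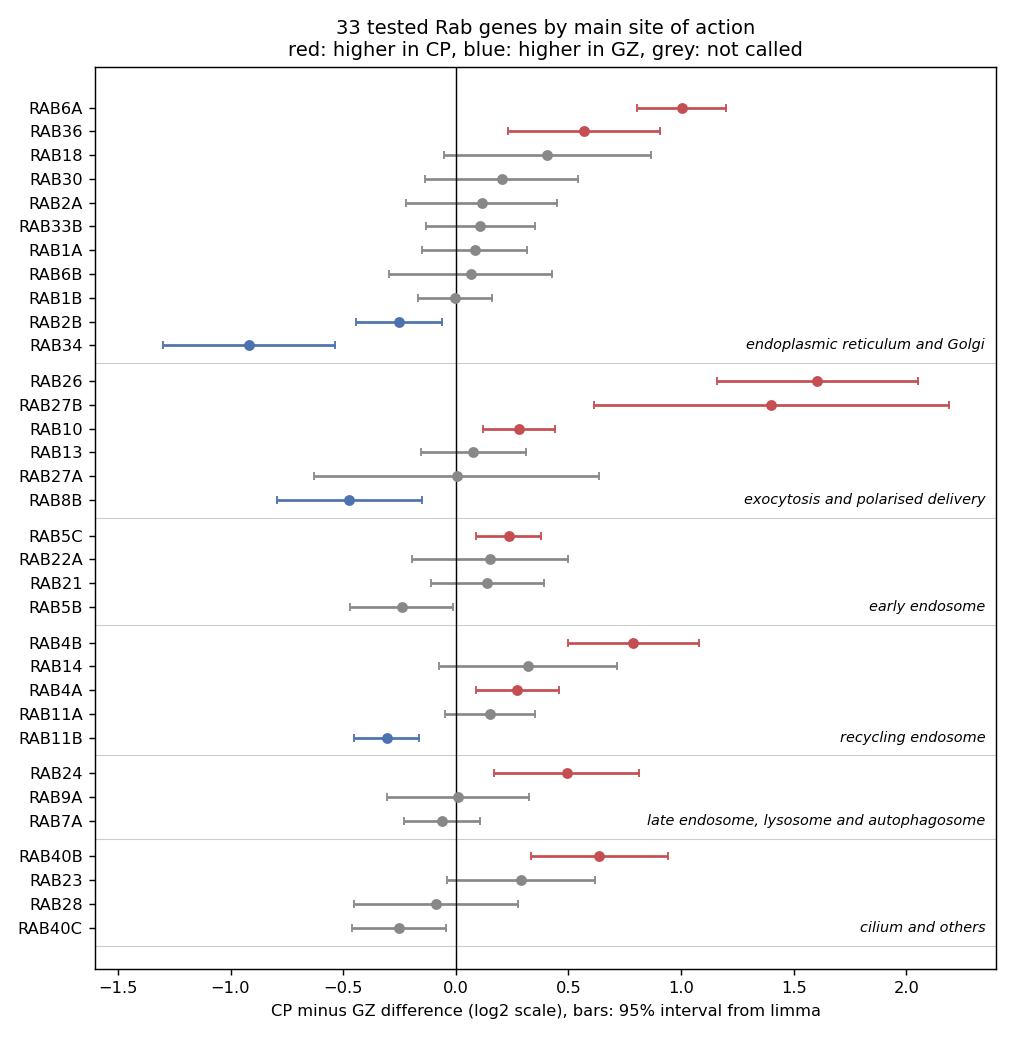
CP minus GZ difference on the log2 scale for the 33 tested Rab genes, with 95% intervals from limma, grouped by the main site of action of the protein. RAB26 (1.61) lies farthest to the CP side and RAB34 (-0.92) farthest to the GZ side, and the intervals of most other genes reach or nearly reach 0.

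Among Rab genes of the endoplasmic reticulum and Golgi, RAB6A was higher in CP and RAB34 higher in GZ, out of 11 tested genes with 2 higher in CP, 2 higher in GZ and 7 not called (median difference 0.11). Calls made up 36.4% of this site, against 45.4% of all genes. RAB6A directs carriers out of the Golgi and back to the endoplasmic reticulum. Its log2 values were 7.28, 7.34 and 7.38 in CP and 6.34, 6.47 and 6.18 in GZ. All 3 CP libraries lay above all 3 GZ libraries, by more than the range within either tissue. RAB6A was 2.00-fold higher in CP (log2 difference 1.00 ± 0.09 SE, limma adjusted p = 1.41e-04, n = 3 per tissue).

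RAB34 acts in the placing of lysosomes near the Golgi and in the building of primary cilia. Its log2 values were 3.07, 3.09 and 2.81 in CP and 4.00, 4.13 and 3.59 in GZ, without overlap. RAB34 was 1.89-fold higher in GZ (log2 difference -0.92 ± 0.16 SE, limma adjusted p = 0.00331) and was the tested Rab gene with the largest difference in that direction. Its close relative RAB36 went the other way, with 2.50, 2.43 and 2.53 in CP and 1.86, 2.07 and 1.81 in GZ. RAB36 was 1.48-fold higher in CP (0.57 ± 0.15 SE, limma adjusted p = 0.0148). The RAB36 call was lost without GZ replicate 1 (adjusted p = 0.056) and with both number 1 libraries left out (adjusted p = 0.123).

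RAB2B, which acts in traffic between endoplasmic reticulum and Golgi, had log2 values of 4.45 to 4.52 in CP and 4.68 to 4.82 in GZ. Its 1.19-fold higher level in GZ (limma adjusted p = 0.0385) was lost without any 1 of 5 libraries, CP replicates 1, 2 and 3 and GZ replicates 1 and 2 (adjusted p = 0.0955, 0.076, 0.069, 0.092 and 0.144). It was also lost with both number 1 libraries left out (adjusted p = 0.195), with the replicate block (0.0662), with no low-value filter (0.0831) and without the variance trend (0.0540). RAB1A and RAB1B, which carry traffic from endoplasmic reticulum to Golgi, were not called, with CP and GZ means of 7.05 and 6.96 for RAB1A. The 95% interval of the difference was -0.15 to 0.32 for RAB1A and -0.17 to 0.16 for RAB1B. RAB2A had an interval of -0.22 to 0.45, with 8.06 in GZ replicate 3 against 7.57 and 7.47 in the other GZ libraries. Without GZ replicate 3, RAB2A (0.29, adjusted p = 0.0132) and RAB1A (0.19, adjusted p = 0.0478) were called higher in CP.

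RAB18, a Rab of the endoplasmic reticulum and lipid droplets, had 6.55, 6.62 and 6.66 in CP and 6.44, 6.49 and 5.68 in GZ. The groups did not overlap, but the low value in GZ replicate 3 widened the interval of the difference to -0.05 to 0.87 (limma adjusted p = 0.131). RAB6B, the form of RAB6 that is enriched in brain, had 6.51, 6.08 and 6.58 in CP and 6.27, 6.13 and 6.57 in GZ (interval -0.30 to 0.43). The Golgi gene RAB30 (interval -0.14 to 0.54) and RAB33B, which acts at the Golgi and in autophagy (interval -0.13 to 0.35), were not called.

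Among Rab genes of exocytosis and polarised delivery, RAB26 and RAB27B had the largest differences, both higher in CP. The site had 3 of 6 tested genes higher in CP and 1 higher in GZ (median difference 0.18). Of all genes, 20.9% were higher in CP and 24.5% in GZ. RAB26 sits on secretory and synaptic vesicles and links them to autophagy. Its log2 values were 3.68, 3.56 and 3.33 in CP and 2.13, 1.54 and 2.09 in GZ. The lowest CP library thus exceeded the highest GZ library by more than the range within either tissue. RAB26 was 3.04-fold higher in CP (log2 difference 1.61 ± 0.19 SE, limma adjusted p = 6.09e-04), the largest difference among the tested Rab genes and rank 372 of 13460 genes in that direction.

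RAB27B acts in the docking of secretory granules at the plasma membrane. Its log2 values were 1.92, 1.80 and 1.74 in CP and 0.23, -0.18 and 1.21 in GZ. The CP libraries were tight and the GZ libraries were scattered, with no overlap. RAB27B was 2.64-fold higher in CP (1.40 ± 0.34 SE, limma adjusted p = 0.0121). That call did not hold with both number 1 libraries left out (adjusted p = 0.0973). Its relative RAB27A, known from the transport of melanosomes and cytotoxic granules, had 0.48 to 1.01 in CP and 0.23 to 0.94 in GZ, with an interval of -0.63 to 0.64 that does not exclude changes of 1.5-fold.

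RAB10, which directs membrane to growing axons and other polarised sites, had 6.85, 6.81 and 6.91 in CP and 6.57, 6.65 and 6.50 in GZ. Its 1.21-fold higher level in CP (0.28 ± 0.07 SE, limma adjusted p = 0.0132) was small but outside the spread of the libraries. RAB8B, a Rab of polarised delivery and cilia, had 3.42, 3.49 and 3.75 in CP and 3.97, 3.87 and 4.24 in GZ, and was 1.39-fold higher in GZ (-0.47 ± 0.14 SE, limma adjusted p = 0.0253). RAB13, which acts at cell junctions and in neurite growth, was not called (interval -0.15 to 0.31). The RAB10 call was lost without CP replicate 3 (adjusted p = 0.0524), without GZ replicate 1 (adjusted p = 0.050) and with both number 1 libraries left out (adjusted p = 0.121). The RAB8B call was lost without CP replicate 1 or 2 (adjusted p = 0.0818 and 0.0701), without GZ replicate 1 or 3 (0.0601 and 0.0618) and with both number 1 libraries left out (0.151).

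Of 4 tested early endosome Rab genes 1 was called, RAB5C (median difference of the 4 genes 0.15). Calls made up 25% of this site, against 45.4% of all genes. RAB5C, which drives fusion of early endosomes, had 6.40, 6.43 and 6.38 in CP and 6.14, 6.20 and 6.16 in GZ. The values were tight and apart, and RAB5C was 1.18-fold higher in CP (0.24 ± 0.06 SE, limma adjusted p = 0.0170). Its paralogue RAB5B had 5.37, 5.21 and 5.48 in CP and 5.50, 5.55 and 5.73 in GZ, which do not overlap, and did not pass (-0.24 ± 0.10 SE, limma adjusted p = 0.0822). RAB21, which acts in integrin traffic, and RAB22A, which acts between early endosomes and recycling carriers, had intervals of -0.11 to 0.39 and -0.19 to 0.50. The RAB5C call was lost without GZ replicate 1 (adjusted p = 0.071), with both number 1 libraries left out (0.162) and without the variance trend (0.0506).

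Recycling Rab genes moved in opposite directions: RAB4B and RAB4A were higher in CP and RAB11B was higher in GZ, out of 5 tested (median difference 0.27). Calls made up 60% of these 5 genes, against 45.4% of all genes. RAB4 proteins return cargo quickly from early endosomes to the plasma membrane. RAB4B had 4.05, 4.12 and 4.00 in CP and 3.41, 3.35 and 3.04 in GZ. The tissues were apart by more than the range within either. RAB4B was 1.73-fold higher in CP (0.79 ± 0.13 SE, limma adjusted p = 0.00203). RAB4A had 4.96, 4.96 and 4.85 in CP and 4.64, 4.60 and 4.70 in GZ, and was 1.21-fold higher in CP (0.27 ± 0.08 SE, limma adjusted p = 0.0248).

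RAB11 proteins carry the slower route through the recycling endosome. RAB11B, next to RAB2A in mean level, had 7.42, 7.41 and 7.50 in CP and 7.75, 7.72 and 7.78 in GZ. The 6 values fell into 2 tight groups, and RAB11B was 1.24-fold higher in GZ (-0.31 ± 0.06 SE, limma adjusted p = 0.00566). RAB11A had 6.42, 6.47 and 6.54 in CP and 6.28, 6.22 and 6.48 in GZ, overlapping, and passed without GZ replicate 3 (0.23, adjusted p = 0.0320) but not with all libraries (adjusted p = 0.187). RAB14, which acts between the trans-Golgi and endosomes, had 6.40 to 6.48 in CP and 6.30, 6.40 and 5.69 in GZ, where GZ replicate 3 was again the low library (limma adjusted p = 0.162). The RAB4A call was lost without CP replicate 1 or 2 (adjusted p = 0.0786 and 0.056), without GZ replicate 1 or 2 (0.0844 and 0.0852), with both number 1 libraries left out (0.203) and without the low-value filter (0.0561). The RAB11B call was lost with both number 1 libraries left out (0.084).

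Of 3 tested Rab genes of late endosomes, lysosomes and autophagosomes, RAB24 was higher in CP and the others were not called (median difference 0.0087). Calls made up 33.3% of this site, against 45.4% of all genes. RAB24 is an atypical Rab of autophagosome clearance. It had 4.97, 5.36 and 4.83 in CP and 4.68, 4.50 and 4.51 in GZ, without overlap, and was 1.41-fold higher in CP (0.49 ± 0.14 SE, limma adjusted p = 0.0220). RAB7A, the general Rab of late endosomes and lysosomes, had 6.57 to 6.74 in CP and 6.70 to 6.79 in GZ, overlapping, with an interval of -0.23 to 0.11. RAB9A, which returns receptors from late endosomes to the Golgi, had an interval of -0.31 to 0.32. The RAB24 call was lost without GZ replicate 2 (adjusted p = 0.0606) and with both number 1 libraries left out (0.0719).

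Among the 4 remaining tested genes, of cilia and other sites, RAB40B was higher in CP and 3 were not called (median difference 0.10). Calls made up 25% of these 4 genes, against 45.4% of all genes. RAB40 proteins carry a SOCS box and recruit a ubiquitin ligase. RAB40B had 3.80, 3.96 and 3.93 in CP and 3.27, 3.06 and 3.46 in GZ, and all CP values exceeded all GZ values. It was 1.55-fold higher in CP (0.64 ± 0.13 SE, limma adjusted p = 0.00592). RAB40C had 4.49, 4.28 and 4.37 in CP and 4.58, 4.63 and 4.68 in GZ, without overlap, and missed the threshold (-0.25 ± 0.09 SE, limma adjusted p = 0.0534). RAB40C was called higher in GZ with quantile normalization (adjusted p = 0.0491) and without CP replicate 1 (adjusted p = 0.0488). RAB23, a negative regulator of Hedgehog signalling, had 3.41, 3.38 and 3.70 in CP and 3.22, 3.03 and 3.37 in GZ and was not called (0.29 ± 0.14 SE, limma adjusted p = 0.130). RAB28, which acts at cilia, had 4.14 to 4.26 in CP and 4.48, 4.47 and 3.92 in GZ. Without GZ replicate 3 RAB28 was called higher in GZ (-0.27, adjusted p = 0.0478).

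GZ replicate 3 was the GZ library farthest from the GZ median for 19 of the 33 Rab genes (57.6%), against 49.5% of all genes. Leaving it out gave 13 Rab genes higher in CP and 4 in GZ. Calls among all genes were then 2864 and 3126, against 2816 and 3297 with all libraries. The spread within GZ exceeded that within CP for 21 of 33 Rab genes (63.6%), against 48.8% of all genes. RAB26, RAB6A, RAB4B and RAB40B, all higher in CP, and RAB34, higher in GZ, were called under all 15 alternatives, including with both number 1 libraries left out.

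The 7 Rab genes below the filter were near or under 1 FPKM and are given as values without a test. RAB25, a relative of RAB11 known from epithelia, had -1.31, -0.86 and -1.12 in CP and -0.38, -0.07 and 0.04 in GZ. RAB42 had -1.59, -1.54 and -1.37 in CP and -0.42, -0.41 and -0.37 in GZ. RAB19 ran from -3.74 to -2.22 in CP and from -1.96 to -1.53 in GZ. These 3 genes lay higher in GZ in all libraries, and their read depth is unknown. RAB37 was -0.58 in GZ replicate 1 and at most 0.11 in the others. RAB38, known from melanosomes, RAB44 and the epithelial gene RAB17 overlapped between tissues, with means of -1.69, -2.62 and -2.74 over the 6 libraries. With no filter, RAB25 and RAB42 were called higher in GZ (limma adjusted p = 0.0158 and 0.00624). All genes also lay farther toward GZ then, with a median difference of -0.21 against -0.05 with the filter. Calls among all genes were 2765 higher in CP and 3457 in GZ. The share of all genes below the filter without overlap was not counted, so the values of the 3 genes are a description.

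The ratio of related Rab genes was apart between CP and GZ libraries for several pairs. The log2 ratio within a library was compared for 8 measured pairs with an exact two-sided permutation test, which with 3 against 3 libraries cannot go below 0.10. The values of the 2 tissues did not overlap in 6 pairs (exact p = 0.10 for each, adjusted p = 0.133 over 8 pairs), so none passed this test. The nearest reference is the 56.4% of all single genes without overlap, which does not give the share for ratios, so the count is a description. RAB6A supplied 63.0%, 70.6% and 63.5% of the RAB6A and RAB6B FPKM in CP, and 51.2%, 55.8% and 43.3% in GZ. The RAB6A share was thus higher in every CP library than in any GZ library. The log2 ratio of RAB6A to RAB6B averaged 0.94 ± 0.28 over CP libraries and 0.01 ± 0.37 over GZ libraries (SD, n = 3).

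RAB40B supplied 38.2%, 44.6% and 42.5% of the RAB40B and RAB40C FPKM in CP and 28.7%, 25.1% and 30.1% in GZ. RAB4B supplied 35.4% ± 0.58 of RAB4A and RAB4B FPKM in CP and 27.8% ± 3.3 in GZ (SD, n = 3). Both RAB4 genes were higher in CP, and RAB4B by more. RAB11B supplied 66.1% ± 0.43 of RAB11A and RAB11B FPKM in CP and 72.8% ± 1.6 in GZ. RAB5C supplied 67.4% ± 2.5 of RAB5B and RAB5C FPKM in CP and 59.8% ± 2.0 in GZ. RAB27B supplied 65.2%, 71.4% and 69.6% of the low RAB27A and RAB27B FPKM in CP and 50.02%, 31.5% and 56.2% in GZ. The RAB1A to RAB1B ratio (exact p = 0.40) and the RAB2A to RAB2B ratio (exact p = 0.30) overlapped between tissues. The sources used here do not state how reads shared by such similar genes were counted.

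**Figure D3:**
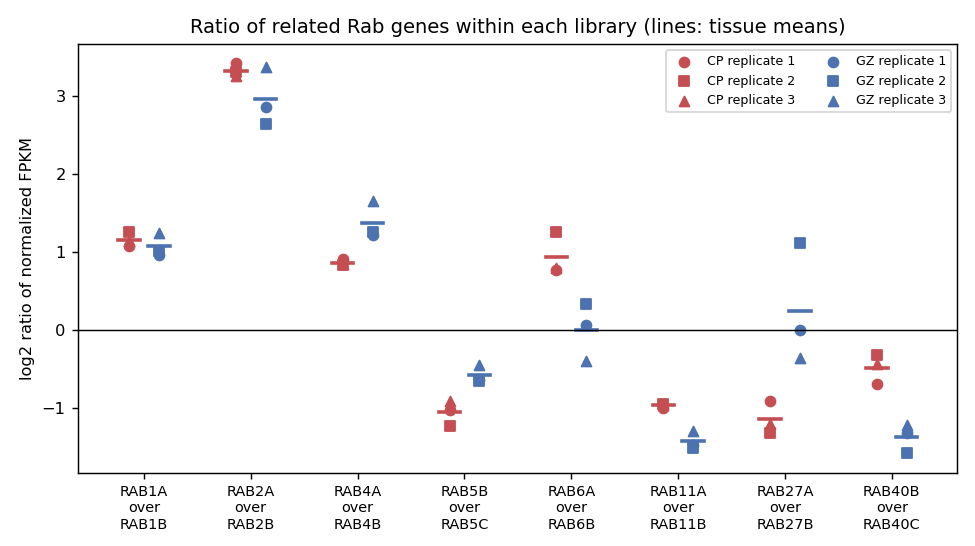
Log2 ratio of normalized FPKM for 8 pairs of related Rab genes in each library, with CP in red, GZ in blue and lines at the tissue means. The libraries of the 2 tissues are apart in 6 pairs and overlap for RAB1A over RAB1B and RAB2A over RAB2B.

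On the linear scale the 40 Rab genes summed to 1769, 1725 and 1806 FPKM in CP and 1586, 1580 and 1660 in GZ. All CP libraries were above all GZ libraries, by 158 FPKM on average. RAB6A averaged 80.8 FPKM in GZ and 161 in CP. Without it the sums were 1605 ± 39 for CP and 1528 ± 52 for GZ (SD, n = 3), 77.3 apart on average. They overlapped through GZ replicate 3 alone, at 1587 against 1505 and 1491 in the other GZ libraries and 1563 to 1639 in CP. RAB6A made up 9.14% ± 0.31 of the sum in CP and 5.03% ± 0.61 in GZ. The endoplasmic reticulum and Golgi genes summed to 817 ± 23 in CP and 698 ± 48 in GZ. Without RAB6A these sums were 656 ± 22 and 618 ± 55, and the tissues overlapped through GZ replicate 3. That library had 681, against 590 and 582 in the other GZ libraries and 631 to 671 in CP. The exocytosis genes summed to 168 ± 5.7 in CP and 141 ± 1.9 in GZ. Recycling genes, among which RAB11B was higher in GZ and the RAB4 genes in CP, summed to overlapping levels of 398 ± 9.2 in CP and 403 ± 6.3 in GZ.

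**Figure D4:**
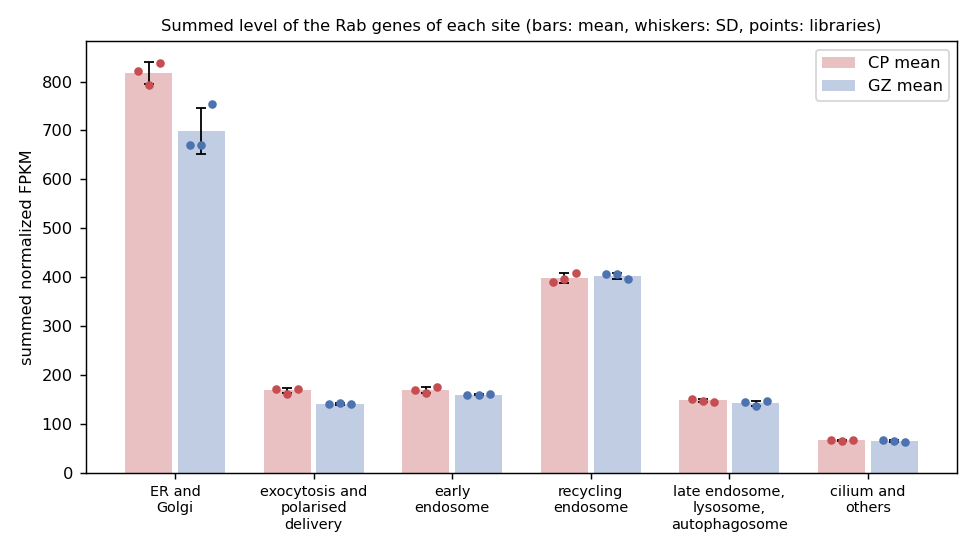
Summed normalized FPKM of the Rab genes of each site, with bars for the mean of 3 libraries, whiskers for the SD and points for libraries. CP libraries lie above GZ libraries for the endoplasmic reticulum and Golgi, exocytosis and early endosome genes, and the tissues overlap at the other sites. For early endosome genes the gap is narrow, with 162 in CP replicate 2 against 161 in GZ replicate 3. Sums hold only genes found by symbol. These were 12 of 17 listed for the endoplasmic reticulum and Golgi, 7 of 9 for exocytosis, 4 of 7 for early endosomes and 4 of 10 for late endosomes.

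Among regulators and effectors of Rab proteins the motor MYO5B and the activating protein TBC1D30 had the largest differences, both toward CP. Of 123 tested genes in 7 lists, 24 had higher levels in CP and 15 in GZ (31.7% called, against 45.4% of all genes), with a median difference of -0.03. Without GZ replicate 1 the count higher in GZ fell to 9, and with both number 1 libraries left out the counts were 12 and 5. MYO5B, a motor that binds RAB11 proteins and moves recycling endosomes, had log2 values of 3.85, 4.08 and 3.86 in CP and 0.57, 0.45 and 0.20 in GZ. MYO5B was 11.5-fold higher in CP (3.52 ± 0.16 SE, limma adjusted p = 2.03e-05), a larger difference than that of any tested Rab gene. MICALL2, which binds RAB13 and RAB8 proteins, was 3.19-fold higher in CP (1.67 ± 0.35 SE, limma adjusted p = 0.00647). Of 31 effectors 8 were higher in CP and 6 in GZ (45.2% called, against 45.4% of all genes). Those higher in GZ were led by the RAB5 effector APPL2 (log2 difference -0.58) and the lysosomal adaptor PLEKHM1 (1.47-fold). The PLEKHM1 call was lost with both number 1 libraries left out (adjusted p = 0.0575).

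GTPase-activating proteins had 8 of 37 tested genes higher in CP and 6 higher in GZ (37.8% called, against 45.4% of all genes). TBC1D30, which acts on RAB8 proteins, had 4.29, 4.10 and 3.99 in CP and 1.85, 1.51 and 2.40 in GZ, and was 4.61-fold higher in CP (2.21 ± 0.22 SE, limma adjusted p = 3.00e-04). EVI5L was 1.73-fold higher in CP, and TBC1D2B and TBC1D1 were 1.66-fold and 1.54-fold higher in GZ. Exchange factors had 3 of 28 higher in CP and 3 higher in GZ (21.4% called, below the 45.4% of all genes). RIN1, which activates RAB5 proteins, was 2.11-fold higher in CP at a low level (1.64 ± 0.43 against 0.56 ± 0.26, SD). HPS1 and DENND1B were higher in GZ, at -0.44 and -0.39 on the log2 scale. The HPS1 call was lost without CP replicates 1 or 2 or GZ replicates 1 or 2 (limma adjusted p = 0.0519, 0.0557, 0.0633 and 0.0775). The DENND1B call was lost without any 1 library except GZ replicate 3 (limma adjusted p = 0.0669 to 0.182). It was also lost with the replicate block (0.0696) and with no low-value filter (0.0646). Both the HPS1 and DENND1B calls were lost with the number 1 libraries left out (0.122 and 0.323).

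In prenylation and membrane cycling, RABAC1, a receptor for prenylated Rab proteins, was 1.70-fold higher in CP and GDI2 1.30-fold, out of 6 tested. The GDI2 call was lost with both number 1 libraries left out (adjusted p = 0.0572). TRAPPC5 (1.64-fold, CP) was the called gene of 11 in the TRAPP complex, which activates RAB1. EXOC6 (1.72-fold, CP), the exocyst subunit that binds RAB11, was the called gene of 9 in the exocyst. Calls made up 33.3% of the prenylation and cycling genes, 9.09% of the TRAPP genes and 11.1% of the exocyst genes. All 3 shares lie below the 45.4% of all genes. PPM1H, a phosphatase of Rab proteins, was 2.26-fold higher in CP (1.18 ± 0.12 SE, limma adjusted p = 3.26e-04). The Rab kinase genes LRRK1 and LRRK2 were below the filter, at means of -0.24 and -0.39. Of 20 ARF, ARL and SAR genes, another family of small GTPases, 10 were called (50%, against 45.4% of all genes).

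**Figure D5:**
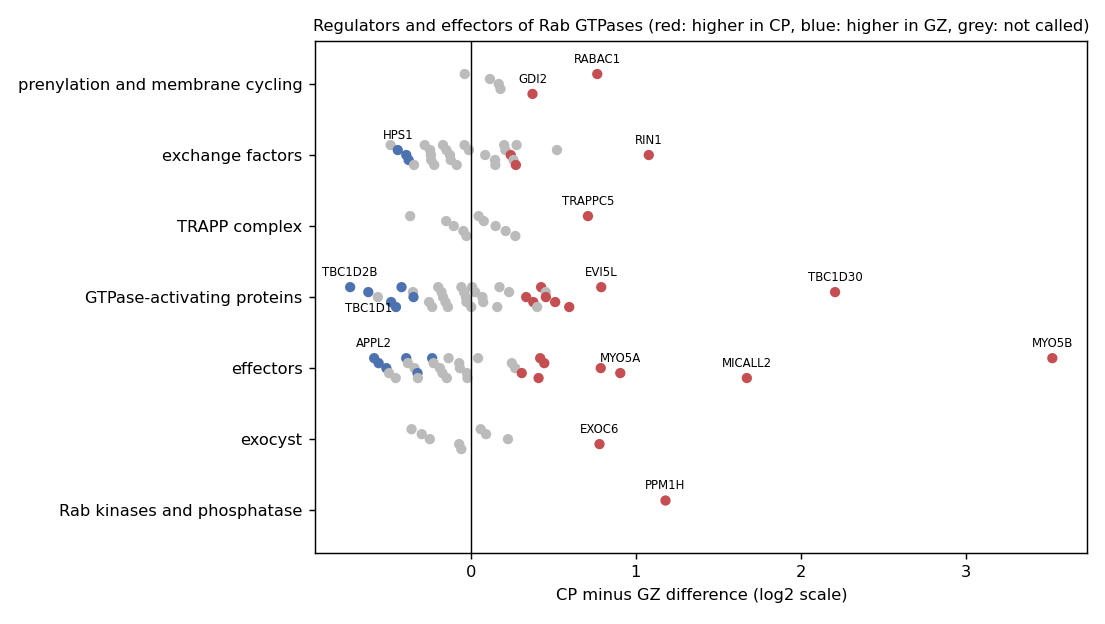
CP minus GZ difference on the log2 scale for 123 tested regulators and effectors of Rab proteins in 7 lists; red points were higher in CP, blue higher in GZ and grey not called. MYO5B (3.52), TBC1D30 (2.21) and MICALL2 (1.67) stand apart on the CP side.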

How the data were processed

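RNA-seq of 3 CP and 3 GZ libraries was used, with groups and replicate numbers from the sample titles. The deposited values are log2 FPKM (reads per length of transcript and size of library) that the authors normalized with cqn, a correction for gene length and GC content, per the labels. The submitters' processing notes list STAR and SAMtools. Among genome builds they list Mmul_8.0.1 and rheMac8, with no role for either. The read counter, its treatment of reads shared between similar genes and the annotation were not given in the sources used here. Read depth is unknown, since the values carry no read totals. Hi-C, DNase-seq and CTCF files were not used here, because no annotation of their build was at hand to tie regions to genes, and no sequences are shown.

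Symbols came from a reference table (14700 of 22345 gene identifiers). Genes averaging at least 0 across libraries were tested with limma 3.58.1 in R 4.3.3 (lmFit, eBayes with trend, CP minus GZ, no block, no pseudocount), with Benjamini-Hochberg adjustment over all 13460. A gene was called at an adjusted p under 0.05, and intervals are 95% intervals from that fit. The test was checked on simulated data. Ratios of related genes were compared with exact two-sided permutation tests. Called genes of at least 0.58 on the log2 scale were chosen to be given in full, and library values of other members are also given. From each list of regulators, up to 2 called genes per direction are named. Members and lists were chosen with earlier results of these data known. Alternatives changed the filter (none, or a mean of 1), the scaling (median centring, quantile normalization), the variance model (no trend, robust) or the pseudocount (1), added a replicate block, or dropped each library in turn or both libraries numbered 1. Leaving out libraries for the ratios of related genes was chosen after seeing the data. Some listed genes are not reported here.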

Additional observations from a re-analysis of the deposited data

How the results depend on the processing

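With a replicate block, 10 Rab genes were higher in CP and 3 in GZ, and the paired fit ended the RAB2B call among the members. Same-numbered deviations correlated at -0.38, 0.30 and 0.35 for numbers 1, 2 and 3. Numbers 2 and 3 correlated best with their own number, as a hint of shared origin from the data, and number 1 did not. The labels do not say what a number stands for, so the block was kept as an alternative. Over the libraries left out in turn, Rab genes higher in CP ranged from 6 to 13 and higher in GZ from 2 to 4, and regulators higher in GZ from 9 to 17. Non-overlapping pairs ranged from 6 to 8. That count could not fall below 6, since ratios that are apart stay apart when a library is left out. With both number 1 libraries left out the counts were 4 and 1 for Rab genes, 1721 and 1644 for all genes and 12 and 5 for regulators, with fewer libraries in the fit. Uncalled differences near 0 changed sign. Over the libraries left out in turn, RAB1B ran from -0.028 to 0.036, RAB27A from -0.22 to 0.14, RAB6B from -0.031 to 0.22, RAB9A from -0.085 to 0.085, RAB13 from -0.0059 to 0.15, RAB22A from -0.012 to 0.26 and RAB28 from -0.27 to 0.0092. RAB1B was 0.0034 with median centring and 0.0028 with quantile normalization, and RAB27A -0.00068 with a pseudocount of 1. With both number 1 libraries left out RAB27A was -0.39, RAB6B -0.021 and RAB9A -0.071. No called Rab difference changed sign under these alternatives. Read depth is unknown, which limits what can be said of genes under 1 FPKM.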
